A study of Mus musculus with 6 samples.

Results

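A set of 10 genes linked to T-cell anergy and to the damping of antigen-receptor signals were followed in cultured mouse CD8 T cells that were labelled Utx KO or WT. They encode 3 surface proteins (Nrn1, Izumo1r and Nt5e), 3 transcription factors (Egr1, Egr2 and Egr3), the ubiquitin ligases Cblb and Rnf128, and the diacylglycerol kinases Dgka and Dgkz. The 10 genes were taken by name from the 25655 gene identifiers in the tables, and all 10 were found. Nrn1 was selected on its measured rise in this very comparison, in the CPM of these 6 libraries, so its values are described here without a test. The other 9 were listed for their place in the anergy literature, with earlier results of this comparison known.

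Anergy is a state in which a T cell that has met antigen without adequate costimulation stays alive but responds poorly when it meets antigen again. In textbook models, calcium and NFAT signals without full AP-1 activity turn on Egr2 and Egr3, ubiquitin ligases such as Cbl-b and GRAIL, and diacylglycerol kinases, which together weaken signalling from the receptor to Ras, protein kinase C and interleukin 2. Most of this was worked out in CD4 T cells, and the same brakes also set the activation threshold of CD8 T cells.

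Female C57BL/6 mice gave the spleens, and 3 Utx KO and 3 WT libraries were made from their CD8 T cells after 5 days of culture. Utx, encoded by Kdm6a, removes methyl groups from lysine 27 of histone H3. Naive cells (CD44 low, CD62L high) were stimulated for 2 days through the T-cell receptor with immobilized antibody at 3 µg/ml, through CD28 with antibody at 1 µg/ml, and with interleukin 2 at 10 ng/ml. They then spent 3 days in interleukin 2 alone, with no receptor antibody named for that time. The labels call the replicates biological. They do not give the knockout allele, the driver of a deletion, the age of the mice or whether replicates are separate animals; p-values therefore measure the spread between these 3 samples per genotype.

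The libraries read the 3' end of polyadenylated transcripts and held 1619085 to 2517655 reads in Utx KO and 1827703 to 2529113 reads in WT. Values are CPM, read counts scaled to the library total, and are given in the order of replicates 1, 2 and 3. Reads come from the 3' end, so gene length hardly scales them. Levels of different genes are therefore set side by side in CPM. Reads carry no stated molecular identifiers, so an order of genes in CPM is an order of reads, and transcript numbers were not measured. A count of 0 still allows up to 1.19 to 1.85 CPM in the Utx KO libraries and 1.19 to 1.64 CPM in the WT libraries (3 reads, counting error only). Kdm6a was at 27.8, 39.4 and 31.5 CPM in the 3 Utx KO libraries, against 44.3, 49.3 and 53.6 CPM in the 3 WT libraries. The genotypes did not overlap (log2 fold change −0.57, SE 0.15, limma adjusted p = 0.0123; 0.0051 to 0.0985 over 18 alternatives), and the call was lost with DESeq2 (0.0985) and without Utx KO replicate 1 (0.0526), WT replicate 2 (0.0521) or WT replicate 3 (0.071). The deleted part is not given, and a 3' tag outside it checks nothing. The CD8 markers Cd8a and Cd8b1 and the general T-cell markers Cd3d, Cd3e and Cd3g were all present. They summed to 1712 to 1748 CPM in Utx KO and 1407 to 1516 CPM in WT, with Cd3d the highest. Cd4 had no read in any library. Of the other 4 markers of CD4 and regulatory T cells, Ikzf4 was highest; all 5 summed to 64.0 to 73.5 CPM in Utx KO and 77.0 to 84.6 CPM in WT. At 0 in all 6 libraries were 3 of 6 B-cell markers, 5 of 7 myeloid markers, 2 of 3 dendritic-cell markers, 1 of 2 natural killer cell markers, 1 of 3 erythroid markers, 1 of 3 stromal markers, both platelet markers and the gamma-delta T-cell marker Trdc. The summed level of any of these lists was at most 12.4 CPM in Utx KO and 9.88 CPM in WT. The erythroid markers summed to 1.19 to 3.09 CPM in Utx KO and to 0 in WT, and the B-cell markers to 0.571 to 1.99 CPM in Utx KO and 2.76 to 5.47 CPM in WT. The part of such cells in the results was not tested.

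Nrn1, chosen for its rise, had the largest fitted fold change of the 8 genes that passed the filter on low values (1 CPM in 3 libraries), and the highest mean CPM of the 10 in both genotypes. It was at 466, 448 and 416 CPM in the 3 Utx KO libraries, and at 147, 155 and 157 CPM in the 3 WT libraries. Every Utx KO library lay well above every WT library, and the libraries within a genotype lay close together. Its log2 fold change was 1.53 (SE 0.07), a 2.88-fold higher level, which ranked 55 from the top among 10590 genes tested. Its means were 443 ± 25.3 CPM in Utx KO and 153 ± 5.08 CPM in WT (SD, n = 3 each), at or above those of 96.8% of the genes tested in Utx KO and 88.5% in WT. Nrn1 encodes neuritin, a small protein held on the cell surface by a lipid (GPI) anchor. It was first known as a factor of neurite growth and is a marker of anergic and regulatory CD4 T cells. In RNA of whole cultures, more cells with a transcript and more of it in each cell cannot be told apart.

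Izumo1r, another marker of anergic CD4 T cells, was sparse. It encodes folate receptor 4, a GPI-anchored protein. It had 7.94, 2.28 and 5.56 CPM in Utx KO and 5.93, 2.76 and 5.47 CPM in WT, or 33 reads over the Utx KO libraries and 31 over the WT libraries. The genotypes overlapped fully. The log2 fold change was 0.06 (95% interval −0.72 to 0.85, limma adjusted p = 0.954), so at this depth a change of either sign could have been missed. Its sign turned to −0.25 without Utx KO replicate 1, to −0.03 without Utx KO replicate 3, to −0.21 without WT replicate 2 and to −0.09 without replicate 1 of both genotypes.

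Nt5e rose. It encodes CD73, the GPI-anchored enzyme that turns extracellular AMP into adenosine, and its level was 13.9, 14.9 and 13.6 CPM in the 3 Utx KO libraries, against 8.70, 7.37 and 6.02 CPM in the 3 WT libraries. The lowest Utx KO library was above the highest WT library. The log2 fold change was 0.87 (SE 0.25; adjusted p = 0.0253 by limma), from 83 reads in Utx KO and 49 in WT. The call was lost without any 1 of 5 of the 6 libraries. The adjusted p was 0.0597 without Utx KO replicate 1, 0.0854 without Utx KO replicate 2, 0.0505 without Utx KO replicate 3, 0.0635 without WT replicate 2, 0.0934 without WT replicate 3 and 0.0623 without replicate 1 of both genotypes. It was 0.24 with DESeq2 and 0.0512 with no filter on low values, and over all 18 alternatives it ran from 0.0177 to 0.24, with a log2 fold change of 0.75 to 0.99.

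**Figure D1:**
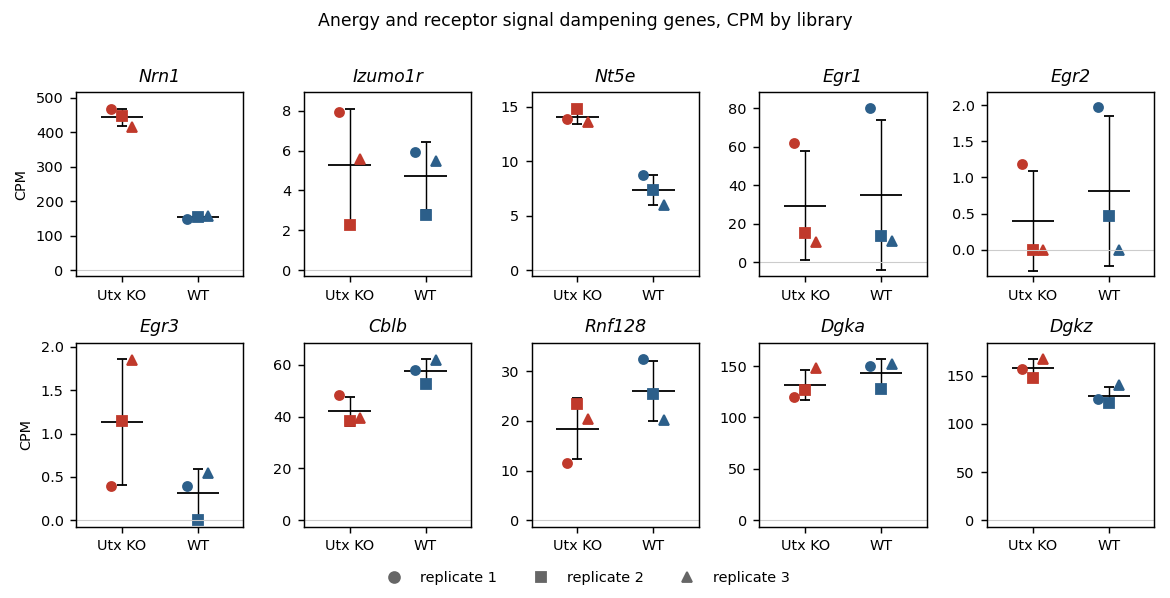
CPM of the 10 genes in each library, Utx KO left of WT in every panel; symbols give the replicate number, the horizontal line the mean and the bar 1 SD (n = 3). Nrn1, Nt5e and Dgkz lie higher and Cblb lower in Utx KO with no overlap, while Egr1 is split by replicate number in both genotypes.

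Egr1 varied more between replicates than between genotypes. Egr1, an immediate-early zinc-finger factor that the receptor and growth signals induce through the Ras and ERK pathway, was at 62.0, 15.4 and 10.5 CPM in the 3 Utx KO libraries, and at 80.3, 13.8 and 10.9 CPM in the 3 WT libraries. Replicate 1 stood apart in both genotypes, at 4.78 times the mean of the other Utx KO libraries and 6.48 times that of the other WT libraries. Egr1 was the only gene with at least 10 CPM on average in each genotype for which both ratios were over 3. The log2 fold change between genotypes was −0.09 (95% interval −1.13 to 0.95, limma adjusted p = 0.95). It became 0.05 without replicate 1 of both genotypes, 0.78 without WT replicate 1 and −0.82 without Utx KO replicate 1. The spread of log2(CPM + 1) within genotypes was 1.41 (SD), at or above that of 99.7% of the genes tested.

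Other immediate-early genes shared the pattern in part. Fos, a subunit of the AP-1 factor, had 17, 0 and 1 reads in the 3 Utx KO libraries, and 10, 2 and 2 reads in the 3 WT libraries. In CPM that is 6.75, 0 and 0.618 in Utx KO and 3.95, 0.922 and 1.09 in WT. Fosb, a relative of Fos, had 7, 0 and 2 reads in Utx KO and 8, 0 and 0 reads in WT. That is 2.78, 0 and 1.24 CPM in Utx KO and 3.16, 0 and 0 CPM in WT. Replicate 1 was the deepest library of both genotypes, so reads overstate its excess. Junb reached 124, 118 and 98.8 CPM in Utx KO and 139, 105 and 122 CPM in WT, a far smaller difference between replicates. Replicate 1 was highest in both genotypes for 9 of 21 genes, that is, Egr1 and the 20 tested genes of a list of Egr partners and immediate-early genes. Over all genes tested this held for 1245, or 11.8%. Fos, Fosb and Junb were picked for description after their values were seen. The labels do not say that a replicate number marks a shared day, and what sets replicate 1 apart was not tested.

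**Figure D2:**
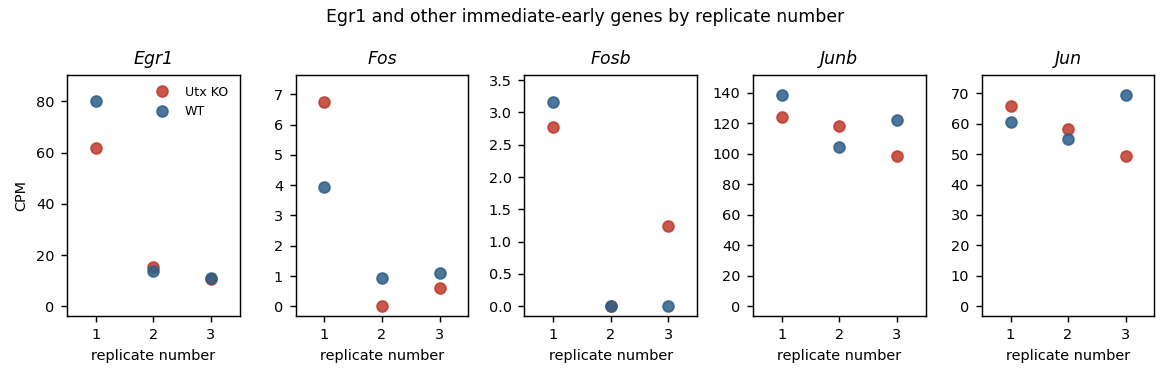
CPM of Egr1, Fos, Fosb, Junb and Jun against the replicate number, with Utx KO and WT libraries as points. Egr1 is at 62.0 and 80.3 CPM in replicate 1 of Utx KO and WT and at 15.4 CPM or below in all other libraries, and Fos and Fosb are also highest in replicate 1, while Junb and Jun vary less.

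Egr2 and Egr3, the members of the family most closely tied to anergy, were at the limit of detection. Egr2 had 3, 0 and 0 reads in the 3 Utx KO libraries, and 5, 1 and 0 reads in the 3 WT libraries. Egr3 had 1, 2 and 3 reads in Utx KO and 1, 0 and 1 reads in WT. Neither passed the filter of 1 CPM in 3 libraries, so neither was in the fit used for the other genes. With no filter, limma gave a log2 fold change of −0.33 (SE 0.38, adjusted p = 0.739) for Egr2 and 0.66 (SE 0.34, adjusted p = 0.293) for Egr3. DESeq2 gave −0.93 (SE 1.88) for Egr2 and 1.82 (SE 1.69) for Egr3, with no adjusted p for either. The ratio of pooled CPM in Utx KO over WT was 0.554 for Egr2 (exact 95% counting interval 0.0897 to 2.60) and 3.33 for Egr3 (0.595 to 33.7), and both intervals include equal levels. No difference in Egr2 or Egr3 was shown at this depth, and the intervals leave room for differences of either sign.

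Of the ubiquitin ligases, Cblb fell. Cbl-b marks components of the receptor pathway for degradation or altered traffic and is a main brake on T cells that lack costimulation. It was at 48.5, 38.3 and 39.5 CPM in the 3 Utx KO libraries, against 58.1, 52.5 and 61.8 CPM in the 3 WT libraries, and the highest Utx KO library was below the lowest WT library. The log2 fold change was −0.45 (SE 0.13; adjusted p = 0.0286 by limma). The call was lost without Utx KO replicate 2 (0.113), Utx KO replicate 3 (0.081), WT replicate 1 (0.0911) or WT replicate 3 (0.123) and with DESeq2 (0.233). Over the 18 alternatives the adjusted p ran from 0.00879 to 0.233 and the log2 fold change from −0.55 to −0.38.

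Rnf128 encodes GRAIL, a membrane-bound ligase that was found as a gene related to anergy in lymphocytes. It was at 11.5, 23.4 and 20.4 CPM in Utx KO and 32.4, 25.3 and 20.2 CPM in WT. Utx KO replicate 1 was the lowest and WT replicate 1 the highest, and the other 4 libraries lay between 20.2 and 25.3 CPM. The log2 fold change of −0.51 (95% interval −0.98 to −0.03) did not pass over all genes (limma adjusted p = 0.184). It shrank to −0.05 without replicate 1 of both genotypes, with an adjusted p of 0.944, while over the 18 alternatives it was 0.0773 to 0.944.

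The diacylglycerol kinases, which turn the second messenger diacylglycerol into phosphatidic acid and so limit Ras and protein kinase C signalling, gave 1 rise. Dgkz, which encodes the zeta enzyme, was at 157, 148 and 167 CPM in the 3 Utx KO libraries, against 126, 122 and 140 CPM in the 3 WT libraries. All Utx KO libraries were above all WT libraries, by a small margin. The log2 fold change was 0.28 (SE 0.08; adjusted p = 0.0312 by limma). The call was lost without Utx KO replicate 3 (0.132), WT replicate 1 (0.112) or WT replicate 2 (0.154), with DESeq2 (0.188) and without replicate 1 of both genotypes (0.116). Over the 18 alternatives the adjusted p ran from 0.0215 to 0.188. Dgka, which encodes the alpha enzyme, was at 120, 126 and 148 CPM in Utx KO and 150, 128 and 152 CPM in WT. Here the genotypes overlapped, with a log2 fold change of −0.13 (95% interval −0.32 to 0.07, limma adjusted p = 0.472).

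The order of the 2 kinases in CPM differed by genotype. Dgkz CPM divided by Dgka CPM in the same library was 1.31, 1.17 and 1.13 in the 3 Utx KO libraries, and 0.837, 0.953 and 0.921 in the 3 WT libraries. Dgkz thus had the higher CPM in each Utx KO library and Dgka in each WT library. Their sum hardly separated the genotypes, at 277, 274 and 316 CPM in Utx KO and 276, 250 and 292 CPM in WT. This ratio was chosen after the values were seen and is given without a test.

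**Figure D3:**
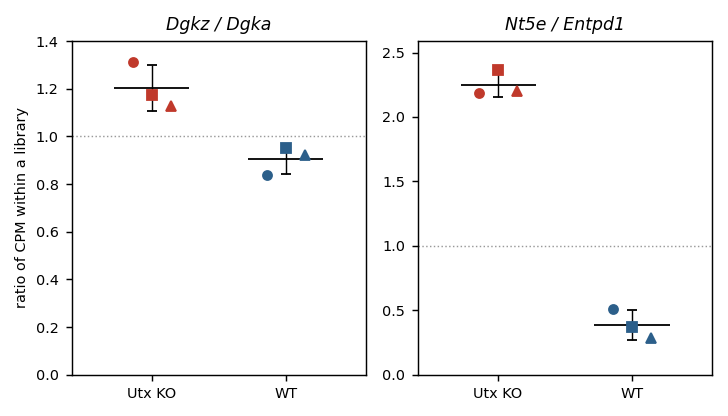
Ratio of CPM within each library, Utx KO left of WT: Dgkz over Dgka and Nt5e over Entpd1, with circles, squares and triangles for replicates 1, 2 and 3, the mean as a line and 1 SD as a bar (n = 3). Both ratios lie above 1 in all Utx KO libraries and below 1 in all WT libraries.

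Among the 9 genes other than Nrn1, 7 passed the filter on low values and 2 of these rose and 1 fell at a limma adjusted p under 0.05. Over all 10590 genes tested, 10.8% were called in this comparison, 5.28% higher and 5.51% lower in Utx KO. Groups did not overlap for 3 of the 7, against 26.5% of all genes tested. As the genes were listed with this comparison known, nothing is read from these shares. The median log2 fold change of the 7 was −0.09, and that of all genes tested was 0.01. In levels, Nrn1 came first in both genotypes. In Utx KO it was followed by Dgkz and Dgka, whose libraries overlapped narrowly, and then by Cblb; in WT the range of Dgka overlapped those of both Nrn1 and Dgkz, which did not overlap each other. Egr1 and Rnf128 overlapped in both genotypes. Nt5e, Izumo1r, Egr3 and Egr2 were the lowest 4 by mean in Utx KO, with Egr2 and Egr3 changing places in WT.

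**Figure D4:**
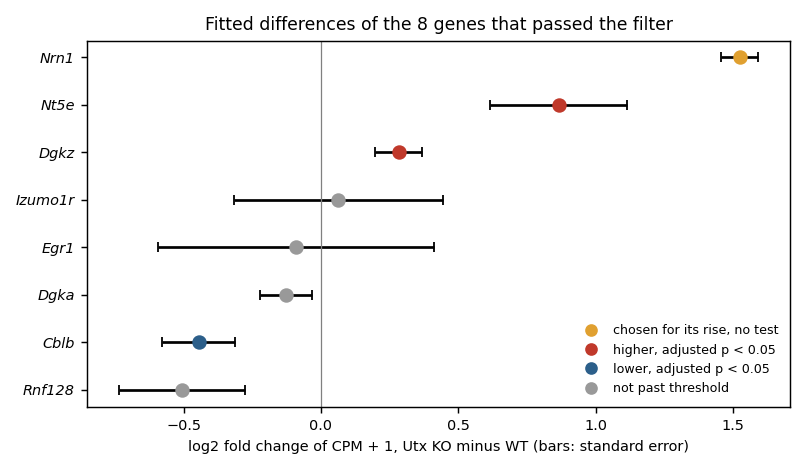
Log2 fold change of CPM + 1, Utx KO minus WT, of the 8 genes that passed the filter, with the standard error as a bar. Nrn1 (1.53, no test) lies far to the right, Nt5e (0.87) and Dgkz (0.28) are higher, Cblb (−0.45) is lower, and Egr1 and Izumo1r have wide bars around 0.

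The sequences before the start sites of the 3 genes that passed the threshold are shown so that the motifs of factors that act in anergy can be looked for in them. Promoter windows (250 bases before to 50 after the start) were available from RefSeq (GRCm38.p6) for 7 of the 10 genes. Motifs were searched on both strands, written as GCGNGGGCG for Egr factors, GGAAA for NFAT and TGANTCA for AP-1. Capitals mark the NFAT letters, or their complement on the other strand; no window of these 3 genes held the Egr or AP-1 letters.
Nt5e, chr9:88327359-88327658, plus strand: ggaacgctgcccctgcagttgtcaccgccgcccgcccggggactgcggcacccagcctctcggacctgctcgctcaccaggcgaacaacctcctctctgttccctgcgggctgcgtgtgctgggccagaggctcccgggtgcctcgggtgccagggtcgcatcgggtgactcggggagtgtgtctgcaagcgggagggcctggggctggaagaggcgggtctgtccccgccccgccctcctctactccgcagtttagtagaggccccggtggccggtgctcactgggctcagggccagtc
Dgkz, upstream start, chr2:91963514-91963813, minus strand: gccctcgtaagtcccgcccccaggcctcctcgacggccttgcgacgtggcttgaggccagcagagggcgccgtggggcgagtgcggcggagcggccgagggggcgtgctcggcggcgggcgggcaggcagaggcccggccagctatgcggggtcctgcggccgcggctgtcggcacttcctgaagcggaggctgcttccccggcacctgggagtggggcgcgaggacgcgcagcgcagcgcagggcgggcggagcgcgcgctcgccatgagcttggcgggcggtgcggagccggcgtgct
Dgkz, downstream start, chr2:91950299-91950598, minus strand: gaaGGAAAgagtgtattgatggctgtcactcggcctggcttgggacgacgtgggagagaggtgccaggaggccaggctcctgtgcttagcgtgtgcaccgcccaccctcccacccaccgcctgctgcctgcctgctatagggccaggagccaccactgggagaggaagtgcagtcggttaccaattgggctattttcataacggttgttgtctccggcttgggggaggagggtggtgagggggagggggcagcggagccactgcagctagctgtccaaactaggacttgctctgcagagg
Cblb, chr16:52031299-52031598, plus strand: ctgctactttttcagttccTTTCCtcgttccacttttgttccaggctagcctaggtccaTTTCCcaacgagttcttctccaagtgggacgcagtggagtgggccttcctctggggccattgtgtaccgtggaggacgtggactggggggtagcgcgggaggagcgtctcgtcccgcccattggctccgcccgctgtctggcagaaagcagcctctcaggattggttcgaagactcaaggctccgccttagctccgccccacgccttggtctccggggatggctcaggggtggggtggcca

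The NFAT letters occurred 2 times in the Cblb window and 1 time in that of the downstream Dgkz start, and not in the Nt5e window or that of the upstream Dgkz start. They were in 61.3% of the 32851 promoter windows of the table, the Egr letters in 5.55% and the AP-1 letters in 7.81%. A match is a description of the sequence, and its absence says only that these letters are not in the window. The upstream Dgkz window held 43 CG dinucleotides and the downstream one 10, against 23 for Nt5e and 17 for Cblb. A 3' tag does not show which Dgkz start was used. The annotated spans of Nt5e, Dgkz and Cblb in GENCODE all begin upstream of these windows, and starts there were not searched.

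The genes sit at separate loci (GENCODE M21, GRCm38). Nrn1 (ENSMUSG00000039114) is on chromosome 13 at 36725361 to 36735131, Nt5e (ENSMUSG00000032420) on chromosome 9 at 88327197 to 88372092, Cblb (ENSMUSG00000022637) on chromosome 16 at 52031225 to 52208048 and Dgkz (ENSMUSG00000040479) on chromosome 2 at 91932824 to 91975864. Exons of Nrn1 overlap those of Fars2 on the opposite strand, those of Dgka overlap Pmel, and those of Dgkz overlap the gene model Gm9821. Without a stated use of strand in the counting, reads of such pairs cannot be told apart. The same limit holds for Ptpn6, Rasgrp2, Rasgrp4, Elk3, Ndrg1, Slc29a1, Lcp2 and Cd3e, which are described below. It also holds for the paralogs Cbll1, Rnf13, Rnf167, Dgkd and Dgke. Exons of the paralogs Rnf149 and Dgkh overlap the gene models Gm15832 and Gm48998 on the same strand, where even a use of strand would not separate the reads. No level is given for Gm9821. Fars2 itself was at 6.85 to 8.03 CPM in Utx KO and 5.14 to 9.68 CPM in WT, small beside Nrn1, and Pmel was at 14.2 to 20.3 CPM in Utx KO and 12.0 to 29.7 CPM in WT. None of the 10 genes shared any 50-base piece of its last 300 transcript bases with another gene.

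Other genes that act beside these 10 moved both ways. In all, 123 of 141 genes from 7 lists passed the filter, of which 12 rose and 19 fell, with a median log2 fold change of −0.09 beside 0.01 over all genes tested. That is 25.2% of the 123 called, beside 10.8% of all genes tested, of which 5.28% rose and 5.51% fell. As the lists were not chosen blind to this comparison, nothing is read from that difference. The lists were drawn up from general knowledge of the pathways with earlier results of these data known, and some genes stand in more than 1 list.

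Of 33 tested genes that dampen receptor signals, 4 rose and 6 fell (median log2 fold change −0.12). The surface receptor Cd5, which holds down receptor signalling and whose level follows the strength of that signal during T-cell development, rose to 54.8, 44.0 and 53.7 CPM in Utx KO, against 26.1, 23.0 and 24.6 CPM in WT. Its relative Cd6 rose to 36.1, 34.8 and 42.0 CPM in Utx KO, against 17.4, 20.7 and 13.7 CPM in WT. For both genes all Utx KO libraries were above all WT libraries, with log2 fold changes of 1.01 and 1.1. Ptpn6, the phosphatase SHP-1, rose by 0.68 on the log2 scale (SE 0.08), to 204 ± 7.12 CPM in Utx KO, against 127 ± 3.94 CPM in WT (SD, n = 3 each). In the other direction Ubash3b, the phosphatase Sts-1 that works with Cbl proteins, fell to 43.8 ± 5.04 CPM in Utx KO, against 77.8 ± 3.34 CPM in WT (log2 fold change −0.82, SE 0.12). The adjusted p of these 4 genes was at most 0.00136 over the 18 alternatives, and 9.57e-07 to 0.000147 with limma. The other falls were of Dok2, Sla, Lax1, Rasa2 and Rasal3, adaptors and Ras GTPase-activating proteins. The calls of Dok2 and Lax1 held in all 18 alternatives. Those of Sla, Rasa2 and Rasal3 held in 13 of 18 each, and were lost with DESeq2 and without Utx KO replicate 3 or WT replicate 3 (all 3 genes), WT replicate 1 (Sla and Rasa2), WT replicate 2 (Rasa2 and Rasal3), Utx KO replicate 1 (Rasal3) or replicate 1 of both genotypes (Sla), with adjusted p up to 0.194.

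The diacylglycerol pathway around Dgka and Dgkz gave 1 rise and 2 falls among 18 tested genes (median −0.05). Rasgrp2, an exchange factor that activates Rap1 in response to calcium and diacylglycerol, rose to 222, 208 and 201 CPM in Utx KO, against 126, 152 and 144 CPM in WT (log2 fold change 0.58, SE 0.08). Rasgrp1, the diacylglycerol-dependent activator of Ras in T cells, fell to 112, 143 and 138 CPM in Utx KO, against 166, 163 and 154 CPM in WT (−0.30, limma adjusted p = 0.0339). In CPM, Rasgrp2 exceeded Rasgrp1 in each Utx KO library and was below it in each WT library. The call of Rasgrp1 was lost with quantile normalization (0.0531) and DESeq2 (0.128), without Utx KO replicate 1 (0.17), WT replicate 1 (0.119) or WT replicate 2 (0.116), and without replicate 1 of both genotypes (0.349, the highest of 18 alternatives, with 0.0174 the lowest). Rasgrp4, at 4.85 ± 1.23 CPM in Utx KO and 9.84 ± 1.49 CPM in WT (SD, n = 3 each; −0.91, limma adjusted p = 0.0494), was called in 4 of 18 alternatives and not when any 1 of the 6 libraries was left out, and its adjusted p ran from 0.0396 to 0.346.

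**Figure D5:**
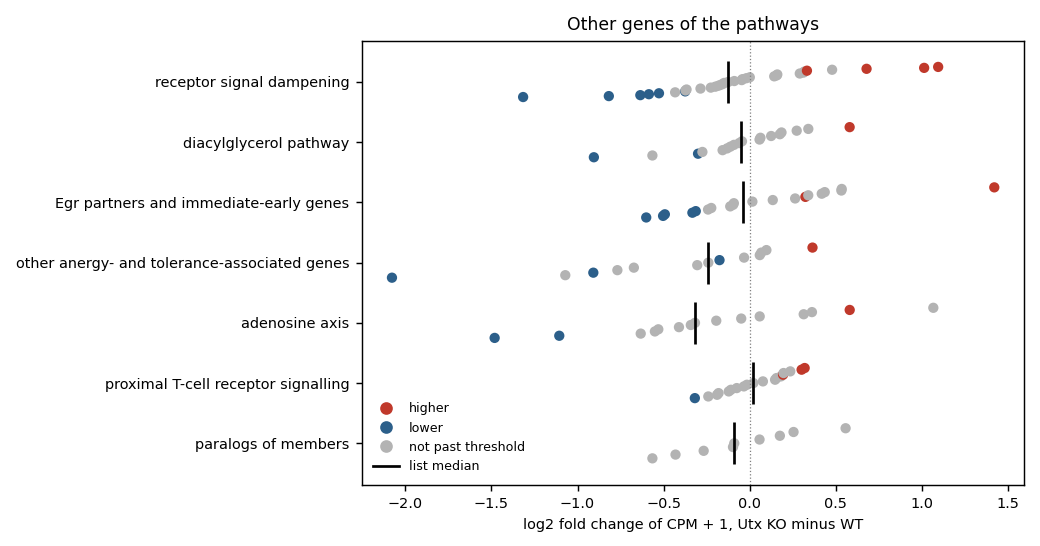
Log2 fold change of CPM + 1, Utx KO minus WT, of each tested gene in 7 lists, 1 point a gene, coloured by whether it passed the threshold and in which direction, with the list median as a vertical line. Medians lie between −0.32 and 0.02, and the called genes of each list except the paralogs fall on both sides of 0.

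Egr partners and immediate-early genes gave 2 rises and 5 falls among 20 tested genes (median −0.04). The AP-1 subunit Fosl2 fell to 63.2, 56.5 and 61.8 CPM in Utx KO, against 96.1, 80.6 and 80.4 CPM in WT (−0.49, SE 0.11, limma adjusted p = 0.00375). Ier3 fell by 0.50 and the Ets-family factor Elk3 by 0.60 on the log2 scale. The orphan receptor Nr4a1, induced by receptor signals and linked to tolerance, rose on few reads. It had 9, 6 and 6 reads in Utx KO and 4, 2 and 0 reads in WT (log2 fold change 1.42, limma adjusted p = 0.0356), a ratio of pooled CPM of 3.88 (exact 95% counting interval 1.51 to 11.7). Its call was lost without any Utx KO replicate (0.0891, 0.0889 and 0.0936 for replicates 1, 2 and 3), without WT replicate 2 (0.0657) or 3 (0.167), with a pseudocount of 0.1 (0.0861, log2 fold change 2.72), with quantile normalization (0.0594) and with DESeq2 (0.342); the lowest of its alternatives was 0.0189. The call of Elk3 was lost in 7 of 18 alternatives, which ran from 0.0223 to 0.238: with DESeq2 (0.238), without Utx KO replicate 2 (0.0607) or 3 (0.0788), without WT replicate 1 (0.076), 2 (0.111) or 3 (0.0618), and without replicate 1 of both genotypes (0.0686). Nab1, a corepressor of Egr factors, and Ier5 were the other falls, and Elk4 was the other rise. These calls too were lost in many alternatives. Nab1 was called in 7 of 18 (adjusted p 0.0245 to 0.288) and lost without any single library other than Utx KO replicate 1. Ier5 was called in 10 of 18 (0.0331 to 0.243) and lost without any single library other than Utx KO replicate 1. Elk4 was called in 13 of 18 (0.0223 to 0.235) and lost without Utx KO replicate 2 or any 1 WT library.

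Further genes reported in anergic or tolerant T cells gave 1 rise and 3 falls among 13 tested (median −0.24). Crtam, an adhesion molecule induced by activation, fell to 9.53, 7.43 and 13.0 CPM in Utx KO, against 19.4, 18.4 and 19.7 CPM in WT (−0.91, SE 0.23, limma adjusted p = 0.0111). Tnfrsf9, the costimulator 4-1BB, fell slightly to 908, 908 and 914 CPM in Utx KO, against 1005, 1011 and 1068 CPM in WT (−0.18, limma adjusted p = 0.0108). Both are known targets of Egr2 in anergic T cells of mice. Il10 had 2 reads in Utx KO and 34 in WT, a ratio of pooled CPM of 0.0652 (exact 95% counting interval 0.00759 to 0.254). It was at 0, 0.571 and 0.618 CPM in Utx KO and 6.33, 5.99 and 2.74 CPM in WT. Il10 thus passed the filter only through the WT libraries, where it is high, and nothing is read from its call. It is counted in the 3 falls here and the 19 over all lists. Only 11 of 18 alternatives fitted it, with log2 fold changes of −3.86 to −1.52. Ndrg1, a factor that has been tied to anergy in mouse T cells, rose by 0.37 on the log2 scale. The call of Crtam was lost with DESeq2 (0.109), without Utx KO replicate 2 (0.0624) and without replicate 1 of both genotypes (0.0611), with 0.00362 as the lowest of 18 alternatives. That of Tnfrsf9 was lost with quantile normalization (0.745, log2 fold change −0.03) and without WT replicate 3 (0.0734), with 0.00427 as the lowest.

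The adenosine axis around Nt5e split. Of 15 tested genes, 1 rose and 2 fell (median −0.32). Entpd1 (CD39), which makes the AMP that CD73 uses, fell to 6.36, 6.28 and 6.18 CPM in Utx KO, against 17.0, 19.8 and 21.3 CPM in WT (−1.48, SE 0.24). The adenosine receptor gene Adora2a fell to 8.34, 5.71 and 8.65 CPM in Utx KO, against 16.6, 17.5 and 17.5 CPM in WT (−1.11, SE 0.24, limma adjusted p = 0.00322). Slc29a1, a transporter that moves adenosine across the membrane, rose to 80.2, 87.4 and 84.0 CPM in Utx KO, against 51.8, 52.5 and 63.5 CPM in WT (0.58, SE 0.11). Nt5e and Entpd1 thus changed places in CPM. Nt5e CPM divided by Entpd1 CPM was 2.19, 2.36 and 2.20 in the 3 Utx KO libraries, and 0.512, 0.372 and 0.282 in the 3 WT libraries. This ratio too was chosen after the values were seen and is not tested.

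Of 19 tested genes that carry the receptor signal forward, 3 rose and 1 fell (median 0.02). The receptor chains Cd3d and Cd3e rose by 0.30 and 0.32 on the log2 scale (limma adjusted p of 0.000224 and 0.0085), and the coreceptor chain Cd8b1 by 0.19, although 34.3% of the 50-base pieces at the 3' end of Cd8b1 occur in other genes. Lcp2, the adaptor SLP-76, fell to 157, 141 and 149 CPM in Utx KO, against 190, 186 and 183 CPM in WT (−0.32, limma adjusted p = 0.00697). The call of Cd3e was lost with DESeq2 (0.0514), without WT replicate 1 (0.0748) and without replicate 1 of both genotypes (0.107; lowest of 18 alternatives 0.00402). That of Cd8b1 was lost with DESeq2 (0.13), without Utx KO replicate 1 (0.077) or 2 (0.0738), without WT replicate 1 (0.109) or 2 (0.149) and without replicate 1 of both genotypes (0.164; lowest 0.0197).

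None of 9 tested paralogs of the 10 genes passed at a limma adjusted p under 0.05. Cbl, the closest relative of Cblb, was at 248 ± 26.4 CPM in Utx KO and 263 ± 7.82 CPM in WT (SD, n = 3 each; 95% interval of the log2 fold change −0.24 to 0.06, adjusted p = 0.531 by limma). Its CPM was thus higher than that of Cblb in every library, although 8.88% of the 50-base pieces at the 3' end of Cbl occur in other genes. For Dgke, described next, that share is 6.57%. Dgkd, another diacylglycerol kinase, was at 107 ± 8.96 CPM in Utx KO and 94.1 ± 4.18 CPM in WT (adjusted p = 0.291 by limma), Dgkh at 8.05 ± 2.40 CPM in Utx KO and 12.1 ± 1.5 CPM in WT (adjusted p = 0.206 by limma), and Dgke at 8.53 ± 0.656 CPM in Utx KO and 8.25 ± 1.66 CPM in WT. Of the membrane-bound ligases related to Rnf128, Rnf149 was highest at 49.1 ± 7.37 CPM in Utx KO and 58.9 ± 3.19 CPM in WT, although 50% of its 3' end pieces occur in another gene. Rnf13, Rnf130 and Rnf167 lay between 9.14 and 30.8 CPM in all 6 libraries, and Rnf167 passed in 1 of 18 alternatives (0.0471, without WT replicate 3). The Cbl-like Cbll1 was at 47.8 ± 7.52 CPM in Utx KO and 50.8 ± 2.46 CPM in WT. At an unadjusted limma p under 0.05, Rnf149, Rnf167 and Dgkh, 3 of the 9, were below the threshold. At least 10.8% of all genes tested were too, as that share passed even after adjustment. The full share at the unadjusted threshold is not given and may be well above that, so nothing is read from this count. After adjustment edgeR, limma-voom and DESeq2 called 0 of the 9. Over all genes they called 1106 of 8832 (edgeR), 1108 of 8832 (limma-voom) and 551 of 13464 (DESeq2).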

How the data were processed

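The tables hold CPM (read counts scaled to the library total) for each gene, as the authors deposited them; the column sums were checked on the values. The build is GRCm38 (mm10), per the submitters' processing notes; the sources used here name no aligner, counter or use of strand. Every value above 0 was a whole multiple of 1 read within 0.001 reads, so reads were recovered, and 0 per-sample columns were left unused. CPM was taken by the present work to log2(CPM + 1), genes with at least 1 CPM in 3 libraries were kept (10590), and Utx KO was compared with WT with limma 3.58.1 (trend, R 4.3.3), two-sided, with Benjamini-Hochberg adjustment over all genes kept and a threshold of 0.05. Fold changes on this scale understate those of low genes. Since the values are CPM, edgeR 4.0.16, DESeq2 1.42.0 and limma-voom on the recovered reads are alternatives. The code was tested on simulated data. Counting intervals are exact, at 95%, and cover counting error only, as reads carry no stated molecular identifiers.

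The members and the gene lists were chosen with earlier results of these data known. Named genes are all 10 members, Kdm6a, from each list up to 4 other genes with the lowest adjusted p among those past the threshold, and all paralogs that passed the filter; other called genes are named without values, except 1 that is not reported here. Fos, Fosb, Junb and the within-library ratios were added after the values were seen. Locations are from GENCODE M21.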

Additional observations from a re-analysis of the deposited data

How the results depend on the processing

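Over 18 alternatives, 17 planned and 1 added after seeing the data (without replicate 1 of both genotypes), Nrn1 kept a log2 fold change of 1.46 to 1.57. Of the 9 other members 2 rose and 1 fell; 1 rose with no filter, 0 without replicate 1 of both genotypes, 0 to 1 when a library was left out and 0 with DESeq2, and 0 fell with DESeq2 and 0 to 1 when a library was left out. Over all genes, 559 rose and 583 fell; with DESeq2 241 rose and 310 fell, and leaving out a library gave 365 to 477 that rose and 382 to 579 that fell. Of the pathway genes 12 rose and 19 fell; with DESeq2 7 rose and 10 fell, and leaving out a library gave 8 to 11 and 10 to 18. Deviations from group means of same-numbered samples correlated at 0.00602, −0.00272 and −0.00963 over 10590 genes. Those of samples with different numbers correlated at −0.0217 to 0.0227. A correlation over all genes can miss an effect on few genes, such as Egr1, so whether replicate numbers pair the samples is not known. A replicate block gave 515 that rose and 550 that fell, with 2 and 1 members, and changed no member's call. The sign turned for Izumo1r (−0.25 without Utx KO replicate 1, −0.03 without Utx KO replicate 3, −0.21 without WT replicate 2, −0.089 without replicate 1 of both genotypes; −0.25 to 0.47 when 1 library was left out), Egr1 (0.15 without Utx KO replicate 2, 0.40 without Utx KO replicate 3, 0.78 without WT replicate 1, 0.047 without replicate 1 of both genotypes; −0.82 to 0.78 when 1 library was left out), Cbll1 (0.023 without Utx KO replicate 2; −0.20 to 0.023), Dgke (−0.079 without WT replicate 3; −0.079 to 0.18), Fos (0.35 with DESeq2, 0.39 and 0.04 without Utx KO replicates 2 and 3; −0.47 to 0.39) and Fosb (−0.0025 without WT replicate 2 and without WT replicate 3; −0.0025 to 0.85), none of which passed. The cause was not tested. Over 713 such comparisons of 41 named genes with a test (Nrn1 has none), 626 kept direction and side of the threshold, 71 lost the call, 1 gained it and 15 changed sign. Depth limits Egr2, Egr3 and Izumo1r. Fits without a library kept genes with 1 CPM in 3 of those left.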
